A study of Mus musculus with 7 samples.

Results

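Malat1, a long noncoding RNA, carried 147 Argonaute crosslink positions in newborn mouse retina, of 14054 in the whole table, and 5 of the 394 distinct miR-216 sites. The gene was chosen by its number of crosslink positions, the highest of any gene (Rorb came next with 105), so that number, and the number of libraries behind its positions set beside other RNAs, are given as descriptions with no test. Its members were every position of the crosslink and miR-216 tables that lay inside the annotated gene on the same strand.

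Malat1 is a single-exon transcript that stays in the nucleus, where it gathers in nuclear speckles, the compartments that store splicing factors, and it is among the most abundant long noncoding RNAs of neurons. Its 3′ end is cut by RNase P, which frees a small tRNA-like RNA and leaves a stabilising triple helix instead of a poly(A) tail. Argonaute proteins carry microRNAs and are best known in the cytoplasm, where the seed of the microRNA, bases 2 to 8, pairs with sites mostly in the 3′ UTRs of mRNAs. Argonaute has also been found in nuclei.

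Newborn (postnatal day 0) CD-1 mice gave the retinas, which were kept for 24 h in culture with 0.1 mM 4-thiouridine, a uridine analogue that is linked to a bound protein by light of 365 nm. Of the 7 libraries, 5 were precipitated with the Argonaute antibody 2A8 and 2 with an IgG1 isotype control; each used 6 pooled retinas, and no genotype or drug set the groups apart. The deposited tables pool the Argonaute libraries and give for each position only the number of libraries that contain it, from 2 to 5. IgG values and values of single libraries were not analysed here, read depth is unknown, and intervals below cover counting error only. The amount of each RNA was not measured, so more RNA and more binding per RNA molecule cannot be told apart. Fewer cells of a type and less RNA per cell cannot be told apart either. Of 15 retinal marker genes, 13 had crosslinks, 231 positions in all, of which Rorb alone had 105. Of 13 markers of pigment epithelium, microglia, vessels and lens 1 had crosslinks, Kdr, with 5. Crosslinks lay in 4943 genes, and the share of all genes with a crosslink was not set beside these lists. The lists were chosen with earlier results of these data known, so their contrast is a description with no test.

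The sequences first show where microRNA seeds met the crosslinks. In 8 of the 147 Malat1 positions a perfect match to the seed of 1 of 43 microRNA families (a 7mer-m8, the reverse complement of bases 2 to 8) began from 1 nt before to 3 nt after the crosslinked T. The families miR-124, miR-133, miR-122, miR-143 and miR-145 were not searched, so no count of matches here includes them. Each line below is 30 nt of the transcript (GENCODE M21, mm10, minus strand), 5′ to 3′, with the crosslinked T at base 11 and the 7mer in capitals.
miR-101 at nt 259 (5 libraries): gaaaagtatttGTACTGTataatggaggct
miR-30 at nt 1726 (3 libraries): gatggtaactTGTTTACtttgtcttaatag
miR-216a at nt 2287 (4 libraries): cctcccttaaTGAGATTtgtaaaatcctaa
miR-26 at nt 2313 (5 libraries): ctaaacactttTACTTGAaatatttgggag
miR-96 at nt 3748 (2 libraries): ggcggtgcagtGTGCCAAtgtttcgtttgc
miR-181 at nt 3934 (5 libraries): tgtagagctgtTGAATGTttgcagctggcc
miR-15/16 at nt 5029 (5 libraries): actgttccaatcTGCTGCTattagaatgca
miR-15/16 at nt 5031 (3 libraries): tgttccaatcTGCTGCTattagaatgcatt

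The last 2 positions lay 2 nt apart on the same match, so the 8 positions met 7 matches. Those for miR-101, miR-26, miR-96 and miR-181 started 1 nt after the crosslinked T, and those for miR-30 and miR-216a started at it. The matches of miR-101, miR-26 and miR-15/16 had an A after the 7mer and were 8mers. The mature sequences they pair with, from RefSeq (GRCm38.p6), have the seed in capitals.
miR-101a-3p: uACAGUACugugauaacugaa
miR-30a-5p: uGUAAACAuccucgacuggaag
miR-216a-5p: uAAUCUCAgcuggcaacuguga
miR-216b-5p: aAAUCUCUgcaggcaaauguga
miR-26a-5p: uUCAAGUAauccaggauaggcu
miR-96-5p: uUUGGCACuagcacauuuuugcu
miR-181a-5p: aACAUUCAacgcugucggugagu
miR-16-5p: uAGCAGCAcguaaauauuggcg

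No 2 of these seeds are the same over all of bases 2 to 8. Those of miR-216a and miR-216b share bases 2 to 7 and differ at base 8, so both can pair with the 6mer GAGATT. miR-96 belongs to a microRNA cluster of sensory organs, miR-181 is frequent in retina and brain, and miR-15/16, miR-26, miR-30 and miR-101 are broadly expressed.

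The other recurrent positions had no such match to the families searched. Of the 10 Malat1 positions found in all 5 libraries, 6 are shown here, with the crosslinked T, or the 7mer that spans it, in capitals.
nt 3911: ttttctctttTtccaaaaagacctgtagag
nt 3967: cttaggcagtTcagaattttgagtagtttt
nt 4419: agatcaggatTtgagccagaagaccgaaat
nt 5268: ttgggagcacTgaagcctttagtctcttcc
nt 5457: tgcaggaacaTtgacaacagcagacatcta
nt 6003: agaaaaTACTTGAgaggccctgggcttgtt

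At nt 6003 a second miR-26 7mer started 4 nt before the crosslinked T and so spanned it. At nt 3911 and nt 4419 only a 6mer (bases 2 to 7) was found from 1 nt before to 3 nt after the T, for miR-129 and miR-24, and the other 3 positions had neither. Of the 11 positions in 4 libraries, 1 had a 7mer at the crosslink, that of miR-216a at nt 2287. The miR-216b 7mer at nt 3463 spanned another of them, at nt 3469.

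The gene (ENSMUSG00000092341.3) lies on chromosome 19 of mm10, from 5795690 to 5802672 on the minus strand, and its longest transcript, ENSMUST00000172812.2, is 1 exon of 6983 nt. All 147 positions fell in that noncoding exon and on a T, and 0 lay on the opposite strand inside the gene. One of them, at nt 3665 in 3 libraries, also lay inside Gm27694, a short RNA annotated at 5799000 to 5799085 on the same strand, so its reads could come from either. The nearest crosslinks outside the gene on that strand were 48670 nt upstream, in Frmd8, and 192581 nt downstream, in Kat5, each in 2 libraries.

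Crosslinks were spread along most of the length of the transcript, and 63.9% of it lay within 20 nt of one. The first was at nt 46 (position 5802627) and the last at nt 6574 (position 5796099), each in 2 libraries. Per length the listed positions came to 21.1 per 1000 nt, and 7.29% of the 2017 T bases were listed as crosslinked. Among the 96 genes with at least 10 exonic positions, the other 95 had a median of 1.76 exonic positions per 1000 nt of their longest transcript. The next highest was Neurod1, a proneural transcription factor named here after its value was seen, at 8.79. In windows of 500 nt the share of T bases crosslinked ran from 4.62% to 11.4% over the first 6500 nt.

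The 3′ end stood apart from this spread. Its last window, nt 6501 to 6983, had 1 position among 164 T bases, or 0.61%. No position was listed in the final 409 nt, which hold 142 T bases; whether reads map there was not tested. At the 5′ end, the 45 nt before the first position hold 3 T bases. The longest stretches without a position inside the transcript ran 267 nt, from nt 467 to nt 734, and 261 nt, from nt 6171 to nt 6432.

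**Figure D1:**
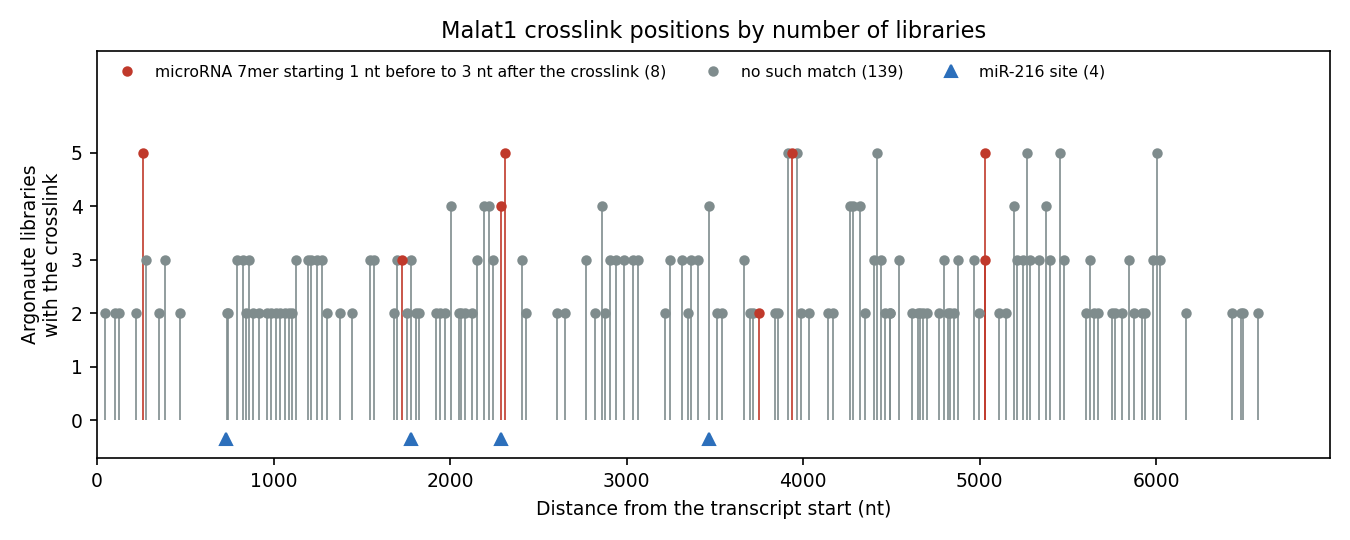
Each line is 1 of the 147 Malat1 crosslink positions, placed by its distance from the transcript start (nt); its height is the number of Argonaute libraries that contain it. The 8 red positions have a microRNA 7mer at the crosslink, the 139 grey ones do not, and the 4 blue triangles mark the miR-216 sites described in the text. Positions run from nt 46 to nt 6574, and 4 of the 10 positions in 5 libraries are red.

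Positions found in more libraries were also spread along Malat1, with a crowded stretch near nt 5001 to 5500. That window had 14 positions, of which 12 were in 3 or more libraries and 3 in all 5. Nt 2001 to 2500 had 8 of 13 in 3 or more libraries, and nt 3001 to 3500 had 7 of 9. Nt 4501 to 5000 also had 14 positions, and 4 of them were in 3 or more libraries. Of the positions in 5 libraries, 3 lay close together, at nt 3911, 3934 and 3967.

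**Figure D2:**
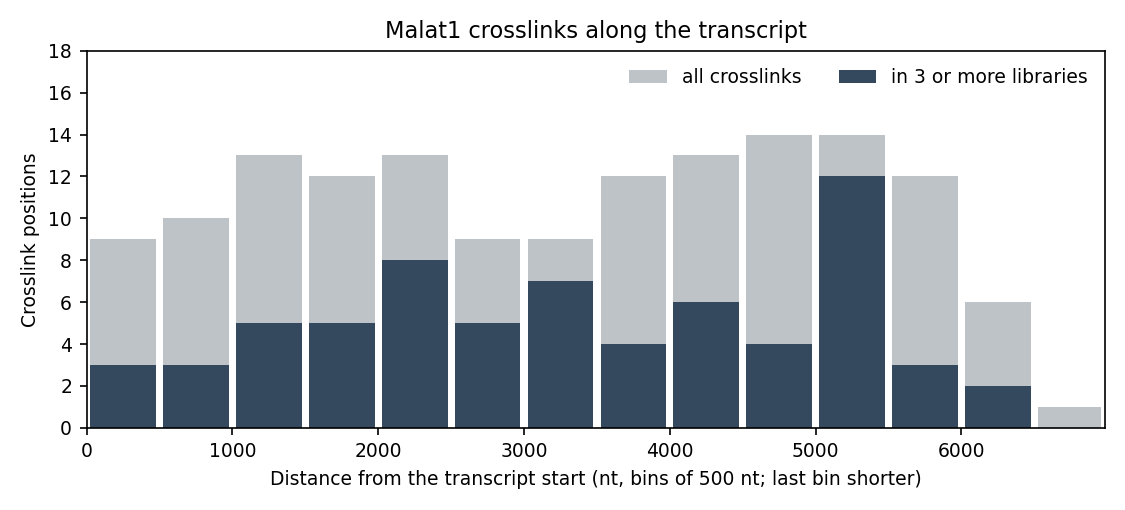
Grey bars count the Malat1 crosslink positions in each 500 nt of the transcript (the last bar covers 483 nt) and dark bars those in 3 or more libraries. The bars hold 6 to 14 positions up to nt 6500 and 1 after it, and the bar of nt 5001 to 5500 has 12 of 14 positions in 3 or more libraries.

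Neighbouring listed positions were rarely close. The deposited crosslinks are titled predominant and hold only positions in 2 or more libraries. Gaps and clusters here therefore describe listed positions, and an unlisted T nearby may also be crosslinked. The median gap was 32 nt, 87 of the 146 gaps were 16 to 40 nt and 3 were under 10 nt. When positions at most 20 nt apart were joined, 59 positions formed 27 clusters and 88 stood alone. None of these clusters held more than 3 positions, and the widest spanned 41 nt. The 5 clusters of 3 ran from nt 825 to 861, 1065 to 1105, 4403 to 4439, 4650 to 4680 and 4800 to 4831. Only that at nt 4403 to 4439 contained a position in 5 libraries, at nt 4419, between a pair in 3 libraries each. With a largest gap of 10 nt, 4 clusters were left.

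Malat1 positions recurred across libraries more often than the table as a whole. In Malat1, 67 of 147 positions were in 3 or more libraries (45.6%, exact Clopper-Pearson 95% interval 37.4 to 54.0), beside 25.6% of all 14054 crosslinks. Among other noncoding exon positions the share was 24.7% (118 of 478, 20.9 to 28.8), and among 3′ UTR positions it was 32.9% (2411 of 7334, 31.8 to 34.0). Malat1 had 80 positions in 2 libraries, 46 in 3, 11 in 4 and 10 in 5. The 10 in all 5 libraries were 6.80% of its positions (3.31 to 12.2), beside 5.11% of 3′ UTR positions, which lies inside that interval, and 3.47% of all crosslinks. In 4 or more libraries the shares were nearly equal, 14.3% in Malat1 (9.07 to 21) and 13.9% in 3′ UTRs (13.1 to 14.7), beside 9.81% of all crosslinks. Of the other 95 genes with at least 10 exonic positions, 16 had a higher share in 3 or more libraries than Malat1. Positions in exactly 3 libraries made up 31.3% in Malat1 and 19% in 3′ UTRs, and positions in exactly 4 made up 7.48% in Malat1 and 8.81% in 3′ UTRs. The number of libraries comes from the same table that chose the gene, so no test against other RNAs is given.

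**Figure D3:**
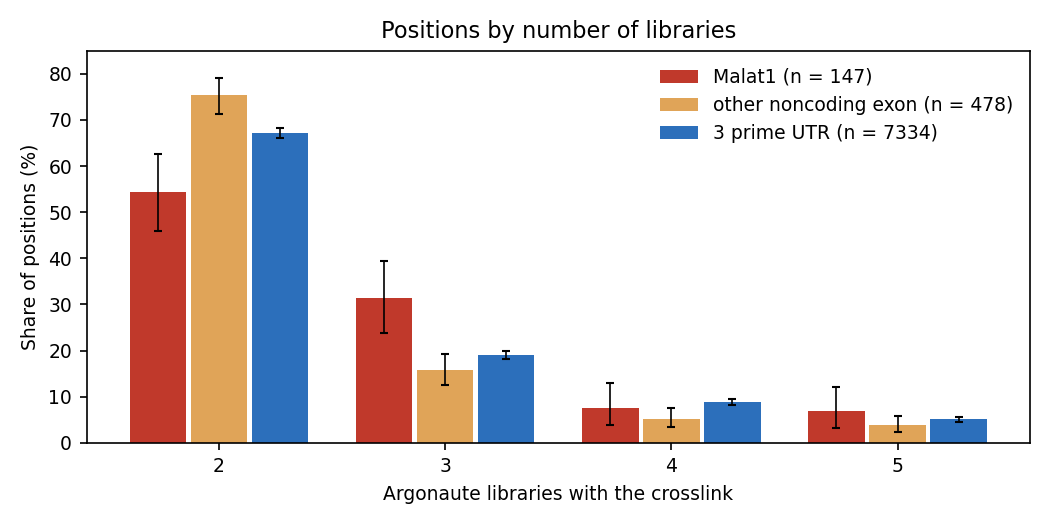
Bars give the share of positions (%) found in 2, 3, 4 or 5 Argonaute libraries for Malat1 (red), other noncoding exons (orange) and 3′ UTRs (blue), with exact 95% intervals. Malat1 has 54.4% of its positions in 2 libraries, below both other sets, and 31.3% in 3 libraries, above both.

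A seed match at the crosslink was present at 5.44% of Malat1 positions (8 of 147, 2.38 to 10.4) and at 26.8% of other exonic crosslinks (2908 of 10842, 26.0 to 27.7), beside 26.5% of all exonic crosslinks. Among other noncoding exon crosslinks the share was 15.5% (74 of 478). No test of these differences is given, because the 147 positions that chose the gene are also the denominator. The whole transcript holds 27 matches to the 43 families, so that if each met 1 position the share in Malat1 would be 18.4%. Among the other 95 genes with at least 10 exonic positions the median share was 19%, and 8 of them had a lower share than Malat1, all with 0. Shares varied among other genes with many positions per length. Neurod1 had 8.33%, the linker histone gene H1f0 had 5.56% and Rorb, a retinal transcription factor, had 7.14%. Btg2 and H19, with more positions per length than Rorb, had 22.2% and 23.1%. Ywhae, Marcks and Gas5, also with more positions per length than Rorb, each had 0%. These genes were picked after their values were seen. For positions in 4 or more libraries the shares were 23.8% (5 of 21) in Malat1 and 45.3% (580 of 1280) at other exonic crosslinks.

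Rates at and away from the crosslinked base were also set side by side. A 7mer started exactly 1 nt after the T at 4 Malat1 positions, or 2.72 per 100, and at 19 per 100 other exonic crosslinks. At starts elsewhere in the 20 nt on either side, there were 12.9 matches per 100 Malat1 positions and 17.3 per 100 other positions. Over whole transcripts the 43 families had 3.87 matches per 1000 nt in Malat1 and 4.18 per 1000 nt in the other transcripts that carry crosslinks. These rates are descriptions with no test.

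Within Malat1, positions with a seed match recurred more often than those without. Of the 8 positions with a match, 7 were in 3 or more libraries (87.5%), against 60 of 139 without one (43.2%). The odds ratio was 9.10 (1.12 to 421; by Fisher's exact test, two-sided, p = 0.0236 and q = 0.0236, adjusted by Benjamini-Hochberg over 2 tests). By number of libraries, a match was present at 1 of 80 Malat1 positions in 2 libraries, 2 of 46 in 3, 1 of 11 in 4 and 4 of 10 in 5 (40%, 12.2 to 73.8). At other exonic crosslinks the shares were 21.1%, 37.3%, 43.8% and 47.9% in 2, 3, 4 and 5 libraries. In 5 libraries the intervals of Malat1 and of the other crosslinks (43.3 to 52.6) overlapped. Positions of 1 transcript are not independent replicates, and the p-value does not measure variation between libraries. The other of the 2 tests, between Malat1 and other RNAs, is not used as support, and the adjustment left this p-value unchanged. The test within Malat1 rests on 8 positions with a match. It was not passed with matches anywhere in the 20 nt on either side (q = 0.515) or with neural and retinal families alone (q = 0.592). With positions within 10 nt merged, the interval of the odds ratio included 1 (0.875 to 354).

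**Figure D4:**
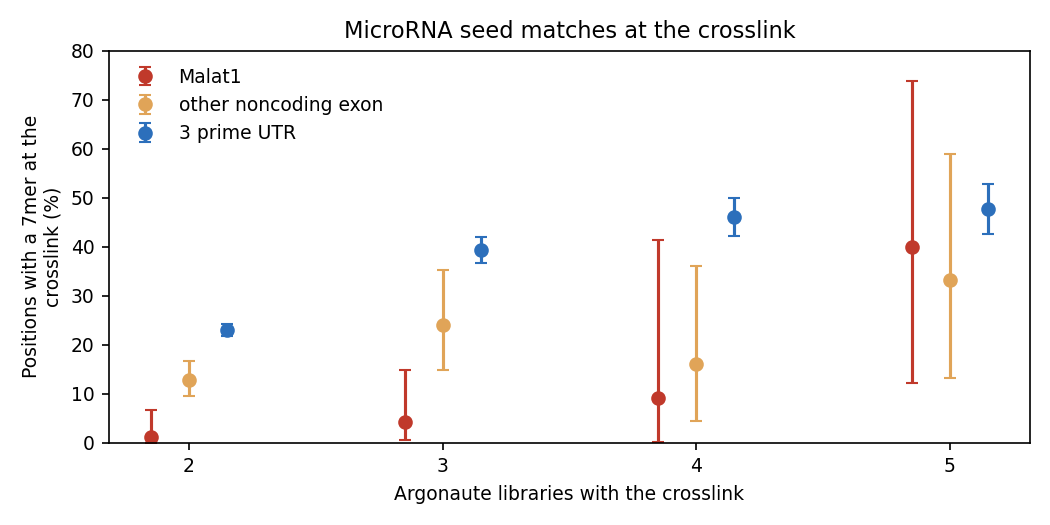
Points give the share of positions (%) with a microRNA 7mer at the crosslink, by number of Argonaute libraries, for Malat1 (red), other noncoding exons (orange) and 3′ UTRs (blue), with exact 95% intervals. In Malat1 the share is 1.25% in 2 libraries and 40% in 5, where its interval overlaps that of 3′ UTRs (47.7%).

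Each family had at most 2 matches in the whole Malat1 transcript. Of the 43 families searched, 18 had a 7mer somewhere in the 6983 nt, with 27 matches in all, and 25 families had none. Among those with none were let-7, miR-17/20/93, miR-19 and miR-125. Of the 27 matches, 21 (77.8%) lay within 20 nt of a crosslink, where 59.3% of all possible 7mer starts lie. Of the same 27, 7 (25.9%) started from 1 nt before to 3 nt after a crosslink, where 10.5% of starts lie. These shares are descriptions, since neighbouring windows overlap. The single miR-9 match, at nt 5912, began 7 nt before a crosslink in 2 libraries. The miR-204 matches began 25 nt after a crosslink in 3 libraries and 13 nt after one in 2 libraries. miR-181 had 1 match at a position in 5 libraries, at nt 3935, and another, at nt 3255, that started 7 nt after a position in 3 libraries. miR-26 had both of its matches at positions in 5 libraries, 1 starting right after the T and 1 spanning it. The only miR-15/16 match, at nt 5031, was the one met by 2 crosslinks, and thus the only family counted at more than 1 position.

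**Figure D5:**
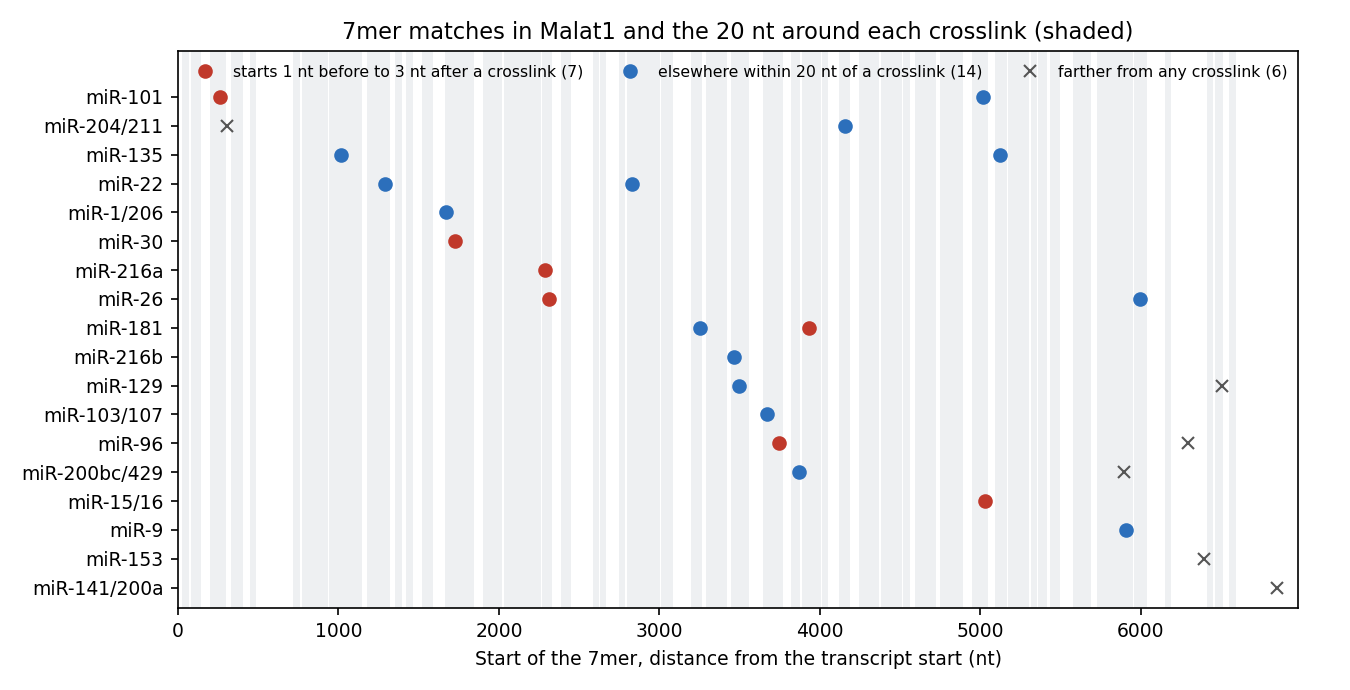
Each row is 1 of the 18 microRNA families with a 7mer in Malat1, placed by its distance from the transcript start (nt); grey shading marks the 20 nt around each crosslink. Of the 27 matches, 7 (red) start from 1 nt before to 3 nt after a crosslink, 14 (blue) lie elsewhere within 20 nt of one and 6 (crosses) lie farther away.

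The bases around the crosslinked T were set beside those at other exonic crosslinks, as a description with no test. G followed the T at 37.4% of Malat1 positions and 41.6% of other exonic crosslinks, beside 26.4% of the T bases of Malat1 that were not crosslinked. A preceded the T at 26.5% of Malat1 positions and 41.6% of other exonic crosslinks, beside 20% of those other T bases of Malat1. C stood 3 nt after it at 21.1% of Malat1 positions and 34.8% of the others. The A+T content of the 41 nt around the T had a median of 58.5% both at crosslinked and at other T bases of Malat1. No 6mer that began between 1 nt before and 3 nt after the T recurred at more than 5 of the 147 positions. The most frequent, CTTTAA, was found at 5, and the transcript holds it 10 times.

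The miR-216 table, which the study drew up for miR-216a and miR-216b in the formation of amacrine cells, listed 5 distinct sites in Malat1 in 7 entries. They made up 1.27% of the 394 distinct sites, beside the 1.05% of all crosslinks that lie in Malat1. The lines that follow give 4 of them, each with 10 nt on either side and the deposited interval in capitals.
nt 728 to 735, chr19:5801938-5801945, miR-216b: atttggagaaAGAAGATTagaaaatgga
nt 1775 to 1780, chr19:5800893-5800898, miR-216b: ttctgtgtaaAGAGATatatctgggg
nt 2288 to 2293, chr19:5800380-5800385, miR-216a/b: ctcccttaatGAGATTtgtaaaatcc
nt 3463 to 3469, chr19:5799204-5799210, miR-216a/b: agcatgagccAGAGATTgttcctactg

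Read from the transcript, these 4 sites differed in how far they pair. The site at nt 2288 had a T just before it, which made it a full miR-216a 7mer, while that at nt 3463 was a miR-216b 7mer. Neither was followed by an A, so neither was an 8mer. The site at nt 1775 was an offset 6mer of miR-216b, which pairs with bases 3 to 8. The site at nt 728 matched the miR-216b 7mer only with 1 bulged base. Malat1 held no other full 7mer of either microRNA. It held 3 copies of the shared 6mer GAGATT, 2 of them in these sites, and 4 of the miR-216b offset 6mer, again with 2 in these sites.

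Both full 7mers were linked to crosslinks in 4 libraries, the highest among the 5 sites. At nt 2287 the crosslinked T was the first base of the miR-216a 7mer, and at nt 3469 it was the last base of the miR-216b 7mer. The site at nt 1775 had its crosslink, in 3 libraries, at its last base, nt 1780. The site at nt 728 had 2 crosslinks, at nt 734 and nt 742, each in 2 libraries. Over all 5 sites, 3 of the 7 linked positions were in 3 or more libraries (42.9%, 9.90 to 81.6), against 64 of the 140 other Malat1 positions (45.7%, 37.3 to 54.3). The difference between these shares was not tested.

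Other noncoding RNAs carried far fewer positions. The 3 genes most like Malat1, taken by their number of noncoding exon positions, were Xist with 33, 1700020I14Rik with 21 and H19 with 13. Xist, the RNA that silences an X chromosome, had 1.84 positions per 1000 nt, 15.2% of them in 3 or more libraries and 12.1% with a seed match at the crosslink. The lincRNA 1700020I14Rik had 2.53 per 1000 nt, with 42.9% in 3 or more libraries and 19% with a match. H19, an imprinted RNA, had 5.69 per 1000 nt, with 23.1% for each of those shares. In Malat1 these values were 21.1 per 1000 nt, 45.6% and 5.44%. Differences from these single genes were not tested.

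Of 27 genes in a list of nuclear and retinal noncoding RNAs, 18 had a crosslink and 12 had at least 3 positions. The list includes Xist, and Snhg11, annotated as protein-coding. The share of all genes with a crosslink was not set beside these counts. Together the list genes had 102 positions, of which 29.4% were in 3 or more libraries. Without Xist this was 36.2% of 69 positions. A seed match at the crosslink was present at 10 of their 93 exonic positions (10.8%; without Xist 6 of 60, or 10%), beside 5.44% in Malat1 and 26.5% of all exonic crosslinks. Gas5, a host of small nucleolar RNAs, had 12 positions, 8 of them in 3 or more libraries and none with a seed match. Snhg1, another such host, had 8 positions, 4 in 3 or more libraries and none with a seed match. Meg3 and Six3os1 had 6 positions each. Neat1, the nuclear RNA that builds paraspeckles and whose gene neighbours Malat1, had 0 listed positions in 20771 nt; its level in these retinas was not measured. Apart from Malat1, 3 genes of the list had a miR-216 site, Xist, Meg3 and Snhg14, with 1 each.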

How the data were processed

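PAR-CLIP was done on 5 Argonaute and 2 IgG libraries. Per the submitters' processing notes, bedtools, STAR and CASAVA 1.8.2 were used with mm10; crosslink caller and thresholds: not given in the sources used here. In the deposited crosslink table the score counts libraries with that crosslink, per the file headers; the deposited miR-216 table has no header, and its score was read the same way from its values. Read depth per library is unknown.

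Positions were placed on GENCODE M21 transcripts (mm10) on the same strand; 3′ UTRs had priority, then coding sequence, then 5′ UTRs, then noncoding exons. All 10989 exonic positions with sequence fell on T. Of 48 microRNA families listed, 43 were searched with seeds from RefSeq (GRCm38.p6); miR-124, miR-133, miR-122, miR-143 and miR-145 were not. The miR-216 sites were linked to crosslinks within 15 nt; site and crosslink had the same score in all 7 links. One of the 5 sites is counted but not reported here singly. Of 30 noncoding RNA names, 27 matched a gene. Names followed a fixed rule (positions in 5 libraries, linked to miR-216 or at the ends; clusters of 3; families at 2 or more positions). Some are named outside it: the families in sequences shown, and Gas5, Snhg1, Neat1 and other list genes.

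Shares have Clopper-Pearson 95% intervals. Two-sided Fisher's exact tests (scipy 1.17.1) were run at a threshold of 0.05, with q-values by Benjamini-Hochberg over 2 tests. That between Malat1 and other RNAs is not used as support, because its denominator is the number of positions that chose the gene. The search code was checked only on exact matches planted in random sequence, at starts after the crosslinked base. Starts at or before that base were not planted, and the check says nothing about these data. The gene, lists and families were chosen with earlier results of these data known. Alternatives changed the range of starts, the match type, families, merging, comparison set, number of libraries, cluster gap and link distance.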

Additional observations from a re-analysis of the deposited data

How the results depend on the processing

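The share of Malat1 positions with a seed match was below its comparison set under all alternatives tried (a difference of -21.4 percentage points as reported). With positions in 4 or more libraries only, where Malat1 had a match at 5 of 21, the difference was -21.5 percentage points. A test between RNAs is not used as support, since the number of positions that chose the gene sets the denominator. The restriction to 4 or more libraries and the 6mer matches were chosen after seeing the data. The higher recurrence of Malat1 positions with a seed match kept its direction under all alternatives tried. It missed the threshold with matches anywhere within 20 nt (a difference of 7.74 percentage points, beside 44.3) and with neural and retinal families only (21.5 percentage points). With close positions merged q was 0.0487 but the odds ratio's interval, 0.875 to 354, included 1, as did that with 7mer-A1 matches added, 0.994 to 52.4 (q = 0.0437). The share of Malat1 positions was 14.3% for 4 or more libraries, a stricter count than 3 or more, and 46.2% with close positions merged. The number of clusters was 27, with 4 at a largest gap of 10 nt and 30 at 50 nt. Each of the 5 miR-216 sites had a crosslink within 10 nt, and 4 had one inside the interval. No paired analysis was possible because both tables combine the Argonaute libraries without listing them singly, which also prevented leaving out single libraries. Read depth is unknown, so an unlisted position shows neither absence of binding nor its limit.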
